A study of Mus musculus with 3 samples.

Results

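Glucose is taken up by membrane carriers, trapped by hexokinase and split by glycolysis into pyruvate, which lactate dehydrogenase turns into lactate for export, while the pentose phosphate pathway branches off after hexokinase and yields NADPH and ribose. The genes of these routes were measured in 31 members of the 55536 gene rows: 2 glucose carriers, 15 glycolytic enzymes, 4 lactate genes, 5 pentose phosphate enzymes and 5 regulators. Members were chosen by gene symbol for their known roles, and the transcript annotation in the tables linked each symbol to its gene row. The cells were macrophages cultured from the bone marrow of C57BL/6J mice and given Lipid A at 100 ng/ml for 20 min, and rRNA-depleted total RNA of their cytosolic fraction was sequenced. Lipid A, the anchor of bacterial lipopolysaccharide, is the ligand of Tlr4. All 3 libraries belong to this 1 group, are numbered as biological replicates 1 to 3, and carry the same donor identifier; the age of the mice is not given in the labels. Replicates thus share a recorded source, so each SD measures only the spread among these samples, which may be partly technical. Each p-value refers only to these samples and does not measure that spread. Untreated cells, further time points and nuclear RNA are not analysed here, and no gene is called induced or repressed.

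Many steps of this pathway are carried out by alternative isoenzymes encoded by separate genes, which differ in tissue, in kinetics or in where they sit in the cell. Macrophages stimulated through Tlr4 are known as cells that raise glycolysis and lactate output within hours and use pentose phosphate NADPH for the respiratory burst. Levels are given in TPM, a relative transcript abundance corrected for transcript length, which can be compared between genes of a library.

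The tables held 27392626 to 81597761 expected counts per library, and 3 counts correspond to between 0.0368 and 0.110 CPM, for counting error only. Nuclear protein-coding genes held 25.0%, 22.0% and 19.6% of all TPM in replicates 1, 2 and 3. TPM was therefore also rescaled so that nuclear protein-coding genes summed to 1000000 in each library. All 10 macrophage markers reached 1 TPM in every library, with summed TPM of 7203, 5448 and 5023. Of 7 neutrophil markers 3 reached 1 TPM (S100a8, S100a9 and Ngp; summed over the list, 18.3, 27.1 and 26.8 TPM), while Ly6g was at 0, 0 and 0.02 TPM. None of the 4 T and NK cell, 4 B cell, 4 erythroid, 4 fibroblast, 4 dendritic cell or 4 mast cell markers reached 1 TPM in all libraries. In bulk RNA, fewer cells of a type and less RNA per cell cannot be told apart. Replicate 3 held more of the nuclear RNA Malat1, with 359, 248 and 763 TPM in replicates 1, 2 and 3.

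All 31 members reached 1 TPM in every library, against 40.5% of the 22015 nuclear protein-coding genes. On the rescaled values all 31 again reached 1 TPM, against 47.4% of those genes. In the second, index-based transcript table, the limit was passed by 23 members, against 31.4% of those genes. The levels spanned from Gapdh at 282 ± 50.3 TPM to Pfkm at 1.41 ± 0.268 TPM (SD, n = 3 libraries, as for every ± below). Of the members, 12 averaged 50 TPM or more, 5 stood between 10 and 50 TPM, and 14 were under 10 TPM. The upper group held Aldoa, Tpi1, Gapdh, Pgk1, Pgam1, Eno1, Pkm and Ldha together with Hk3, Gpi1, Taldo1 and Pgd. The lower group held both glucose carriers, all phosphofructokinases and both lactate carriers. When the members were ordered by mean TPM, 25 of the 30 pairs of neighbours had overlapping ranges over the libraries, and 16 pairs kept the same order in all 3 libraries. The 5 gaps without overlap lay below Gapdh, below Aldoa, below G6pdx, below Hk1 and below Pfkfb3. Pkm, Ldha and Pgam1 followed Aldoa with overlapping ranges, and at the low end Slc16a1, Ldhb and Pfkm could not be ordered, since the order of their levels changed between libraries.

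**Figure D1:**
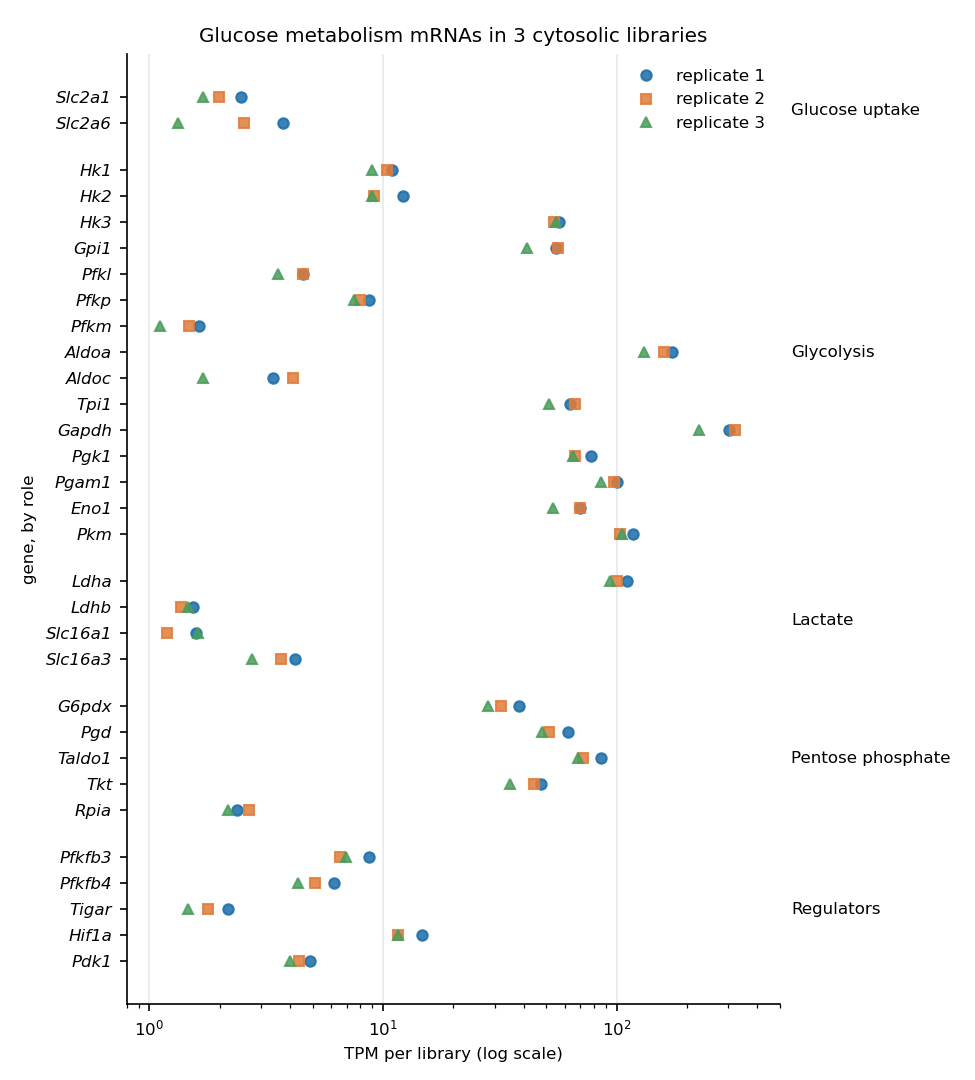
TPM of each of the 31 members (horizontal log axis) in replicates 1, 2 and 3 (circle, square, triangle), with genes grouped by role down the page. Gapdh lies farthest right, with 225 to 320.2 TPM, while the glucose carriers, Pfkm, Ldhb and Tigar sit between 1 and 5 TPM.

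As a share of nuclear protein-coding TPM, the 15 glycolytic enzymes held 0.423%, 0.468% and 0.430% in replicates 1, 2 and 3, and the 31 members together held 0.598 ± 0.0226%. The pentose phosphate enzymes held 0.0929 ± 0.00140%, the lactate genes 0.0488 ± 0.00174% and the regulators 0.0141 ± 0.000667%. The 2 glucose carriers held 0.00202 ± 0.000472%, the smallest share of the 5 role groups, with 0.00248%, 0.00205% and 0.00154% in replicates 1, 2 and 3. Within the glycolytic enzymes Gapdh alone held 28.8 ± 2.22% of the summed TPM, Aldoa 15.8 ± 0.525% and Pkm 11.2 ± 1.20%. The 3 phosphofructokinase genes, whose enzyme commits glucose to glycolysis, each held less than 1% of it, from 0.143 ± 0.0115% for Pfkm to 0.828 ± 0.0594% for Pfkp.

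Glucose enters macrophages through facilitative carriers of the Slc2a family. Slc2a1 encodes GLUT1, the widespread carrier of the plasma membrane, and had 2.46, 1.98 and 1.69 TPM in replicates 1, 2 and 3. Slc2a6 encodes GLUT6, a carrier found on lysosomes (chromosome 2, 27021363 to 27027998, minus strand, mm10), and had 3.73, 2.53 and 1.33 TPM. Slc2a6 was above Slc2a1 in replicates 1 and 2 and below it in replicate 3. The log2 difference of Slc2a6 over Slc2a1 averaged 0.20 ± 0.49, higher in 2 of 3 libraries (two-sided exact sign-flip test, p = 0.5; with 3 libraries no p can fall under 0.25). Of the 11 other glucose carriers listed, 3 reached 1 TPM in all libraries. Slc2a8, an intracellular carrier, was at 4.48, 4.50 and 4.05 TPM and exceeded both members in every library. Slc2a9, which carries urate, had 1.99 ± 0.191 TPM, and Slc2a3, which encodes the carrier GLUT3, had 1.18 ± 0.225 TPM. The insulin-responsive carrier Slc2a4 was at 0.01, 0.01 and 0.08 TPM and the hepatic carrier Slc2a2 was listed at 0.

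Hexokinase, which phosphorylates glucose, was represented mainly by Hk3 (chromosome 13, 55005985 to 55021385, minus strand). Hk3, a form known from myeloid cells, had 56.5, 53.9 and 55.1 TPM in replicates 1, 2 and 3. Hk2, the inducible form that binds mitochondria, had 12.2, 9.11 and 8.98 TPM. Hk1, the widespread mitochondrial form, had 10.9, 10.4 and 8.94 TPM. Hk3 was above both in every library, 5.52-fold over Hk2 (log2 2.47 ± 0.22) and 5.50-fold over Hk1 (log2 2.46 ± 0.14), with p = 0.25 in the two-sided exact sign-flip test for each. Its share of the 3 genes' TPM was 73.3 ± 2.21%, and 75.6 ± 2.39% in the second transcript table. Hk2 and Hk1 were at 13.3 ± 1.70% and 13.4 ± 0.992%, a log2 difference of -0.01 ± 0.18 with Hk2 higher in 2 of 3 libraries (p = 1, same exact test). In the second table Hk2 was below Hk1 in all 3 libraries, by a log2 difference of -0.56 ± 0.09. Hk3 was there 7.71-fold over Hk2 and 5.21-fold over Hk1. The first table's Hk2 level includes 32.6 ± 3.68% in the short transcript Hk2-202, which held 0 in the second table. Of the other glucose-phosphorylating enzymes, the ADP-dependent kinase Adpgk had 3.94 ± 0.185 TPM, while Hkdc1 had 0 counts in all libraries.

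**Figure D2:**
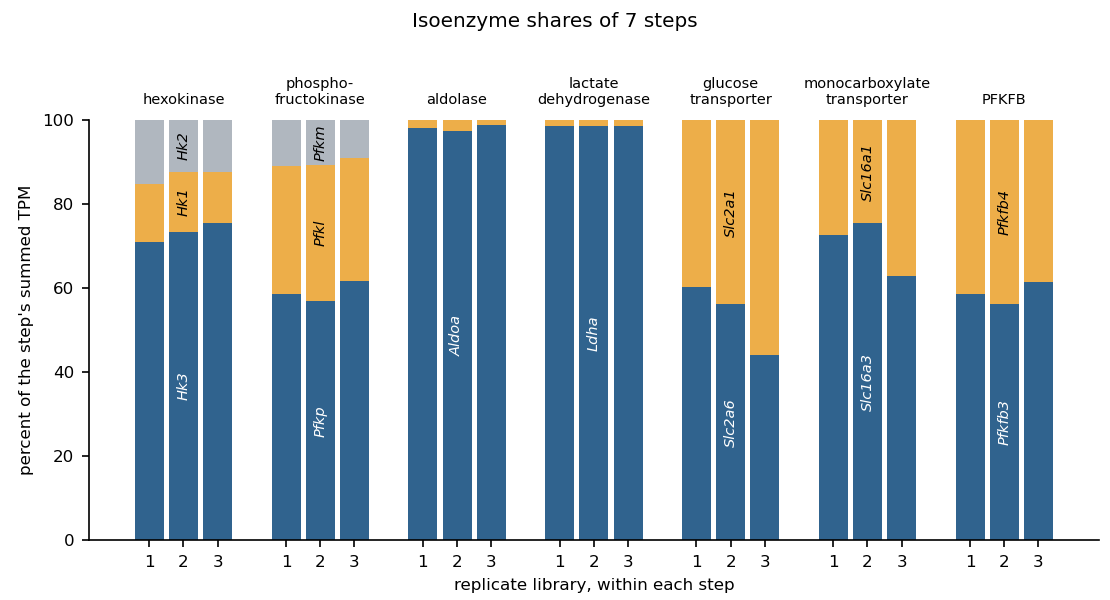
Stacked bars give the percent of each step's summed TPM held by each member isoenzyme (vertical axis), with a bar for each of replicates 1, 2 and 3 within each of 7 steps. Aldoa and Ldha fill over 97% of their bars, Hk3 between 71.0% and 75.4%, and the glucose carriers change order in replicate 3.

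Gpi1, which converts glucose phosphate to fructose phosphate, had 54.9, 55.8 and 41.3 TPM. Phosphofructokinase was led by the platelet form Pfkp, with 8.71, 7.93 and 7.50 TPM in replicates 1, 2 and 3. The liver form Pfkl had 4.55, 4.55 and 3.56 TPM, and the muscle form Pfkm had 1.63, 1.48 and 1.11 TPM. The order Pfkp, Pfkl, Pfkm held in every library, with Pfkp 1.92-fold over Pfkl (log2 0.94 ± 0.14) and Pfkl 3.02-fold over Pfkm (log2 1.59 ± 0.10; p = 0.25 for each, two-sided exact sign-flip test). Shares were 59.0 ± 2.45% for Pfkp, 30.8 ± 1.68% for Pfkl and 10.2 ± 0.970% for Pfkm, and the second table gave 60.4 ± 3.03%, 29.7 ± 2.37% and 9.91 ± 1.99%.

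Aldolase was almost wholly Aldoa (identifier ENSMUSG00000030695.16, chromosome 7, 126795234 to 126800751, minus strand), with 173, 159 and 131 TPM. The brain form Aldoc had 3.37, 4.11 and 1.70 TPM. Aldoa was 53.4-fold over Aldoc (log2 5.74 ± 0.50, higher in 3 of 3 libraries; p = 0.25, two-sided exact sign-flip test). The annotation gives Aldoa a second identifier, which held 1, 1 and 2 counts. Aldoa has several annotated starts, and each of its transcripts was assigned to the nearest RefSeq start within 100 bases. Transcripts of the middle start held 87.1 ± 2.29% of Aldoa TPM, those of the upstream start 6.33 ± 0.901%, and those of the nearby downstream start 3.16 ± 0.820%. These are estimated shares of overlapping transcripts, not a measure of start use. Aldoa-203 of the upstream start shares 89.0% of its bases with Aldoa-201 of the middle start, and Aldoa-202 of the downstream start 90.1%. The second table gave 83.7 ± 2.96%, 5.56 ± 0.875% and 3.36 ± 0.853%. The promoters of the middle start (chr7:126799205-126799504, minus strand, RefSeq, GRCm38.p6) and of the upstream start (chr7:126800398-126800697, minus strand) are printed because they separate the main from the minor Aldoa transcript. Capitals mark the letters ACGTG or GCGTG on either strand.
Aldoa middle start: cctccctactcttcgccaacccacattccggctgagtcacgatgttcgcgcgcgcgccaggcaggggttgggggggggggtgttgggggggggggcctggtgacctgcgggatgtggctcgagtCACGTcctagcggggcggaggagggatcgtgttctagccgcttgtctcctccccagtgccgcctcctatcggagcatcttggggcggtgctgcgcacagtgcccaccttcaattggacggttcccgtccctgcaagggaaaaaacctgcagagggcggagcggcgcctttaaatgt
Aldoa upstream start: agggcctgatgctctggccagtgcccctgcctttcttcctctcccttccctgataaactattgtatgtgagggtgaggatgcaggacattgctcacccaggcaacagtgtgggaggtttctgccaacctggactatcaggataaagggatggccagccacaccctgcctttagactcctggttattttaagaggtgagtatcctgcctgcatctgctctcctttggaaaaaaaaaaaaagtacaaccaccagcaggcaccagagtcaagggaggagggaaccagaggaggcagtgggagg
The first holds 1 ACGTG match and has 65.7% G and C, and the second holds neither motif and has 52.7% G and C.

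The enzymes of the lower part of the pathway were among the most abundant members. Gapdh (chromosome 6, 125161715 to 125166467, minus strand), which makes the first NADH of the pathway, had 301, 320.2 and 225 TPM in replicates 1, 2 and 3. Pgk1, which makes the first ATP, had 77.9, 66.4 and 64.9 TPM. Triose phosphate isomerase Tpi1 was at 60.2 ± 7.93 TPM, phosphoglycerate mutase Pgam1 at 94.7 ± 7.85 TPM and enolase Eno1 at 64.3 ± 9.49 TPM. Replicate 3 was the lowest library for each of these 5 genes on TPM. Their tissue-restricted relatives were low: neuronal enolase Eno2 had 1.56 ± 0.455 TPM, muscle enolase Eno3 0.893 ± 0.119 TPM and muscle mutase Pgam2 0.543 ± 0.133 TPM. The testis forms Pgk2 and Gapdhs and the liver pyruvate kinase Pklr had 0 counts in all libraries. Of the 9 genes listed as other enzymes of lower glycolysis, 2 reached 1 TPM in all libraries, Eno2 and Bpgm, the red cell mutase (1.74 ± 0.204 TPM).

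Pyruvate kinase was encoded by Pkm (chromosome 9, 59656368 to 59679375, plus strand), with 118, 103 and 105 TPM. Pkm makes the M1 and M2 forms through a pair of mutually exclusive coding exons, of which the upstream is known as the M1 exon and the downstream as the M2 exon; M2 is the form of proliferating cells and of activated macrophages. Transcript Pkm-201 carries the downstream exon (chr9:59675568-59675734, plus strand, mm10) and Pkm-202 the upstream exon (chr9:59675029-59675195). Both exons are 167 bases long and identical at 103 positions (61.7%). They are printed because they are the coding difference between the 2 forms, and capitals mark the 64 positions that differ.
Pkm-201 exon (M2): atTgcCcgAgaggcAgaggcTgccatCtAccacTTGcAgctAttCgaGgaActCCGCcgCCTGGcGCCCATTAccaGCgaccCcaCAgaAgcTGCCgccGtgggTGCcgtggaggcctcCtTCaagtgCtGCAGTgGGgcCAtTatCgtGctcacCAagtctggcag
Pkm-202 exon (M1): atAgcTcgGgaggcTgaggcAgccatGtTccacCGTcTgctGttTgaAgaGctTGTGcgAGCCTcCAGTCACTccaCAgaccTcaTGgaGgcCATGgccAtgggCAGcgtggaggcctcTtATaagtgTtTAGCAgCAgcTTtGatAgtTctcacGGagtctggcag
Pkm-201 held 87.5%, 86.4% and 87.4% of Pkm TPM in replicates 1, 2 and 3, and Pkm-202 held 12.1%, 12.6% and 11.1%. The second table gave 86.0 ± 0.591% for Pkm-201 and 11.3 ± 1.01% for Pkm-202. Pkm-202 shares 1874 of its 2041 bases with Pkm-201, which is 2432 bases long. Pkm-201 thus has further bases of its own outside its exon shown here, so the shares do not rest on the exons alone. The M2 transcript thus exceeded the M1 transcript in every library of both tables, with 11453, 32665 and 15994 expected counts for Pkm-201 and 1306, 3913 and 1668 for Pkm-202.

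Lactate dehydrogenase was almost wholly the muscle-type subunit Ldha, with 111, 100.4 and 93.7 TPM in replicates 1, 2 and 3. The heart-type subunit Ldhb had 1.53, 1.37 and 1.47 TPM, and the testis subunit Ldhc had 0 counts. Ldha was 69.6-fold over Ldhb (log2 6.12 ± 0.11, higher in 3 of 3 libraries; p = 0.25, two-sided exact sign-flip test) and held 98.6 ± 0.110% of their TPM. Among the lactate carriers, Slc16a3, the export carrier MCT4, had 4.21, 3.66 and 2.75 TPM. Slc16a1, the carrier MCT1, had 1.58, 1.19 and 1.62 TPM, and was below Slc16a3 in every library. Slc16a3 was 2.41-fold over Slc16a1 (log2 1.27 ± 0.45; p = 0.25, same exact test). A carrier outside the members was higher than both. Slc16a7, MCT2, a high-affinity pyruvate and lactate carrier, had 20.4, 16.1 and 12.7 TPM, which made up 76.4 ± 1.82% of the summed TPM of the family's 4 listed genes (Slc16a8 was at 0 TPM), against 16.6 ± 0.754% for Slc16a3 and 7.08 ± 2.12% for Slc16a1. The second table gave Slc16a7 76.3 ± 1.99%. Of the carriers' partner proteins, basigin (Bsg) was at 79.4, 68.4 and 67.3 TPM and embigin (Emb) at 29.8, 21.1 and 17.2 TPM. The ranges of Slc16a7 and of both member carriers did not overlap.

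**Figure D3:**
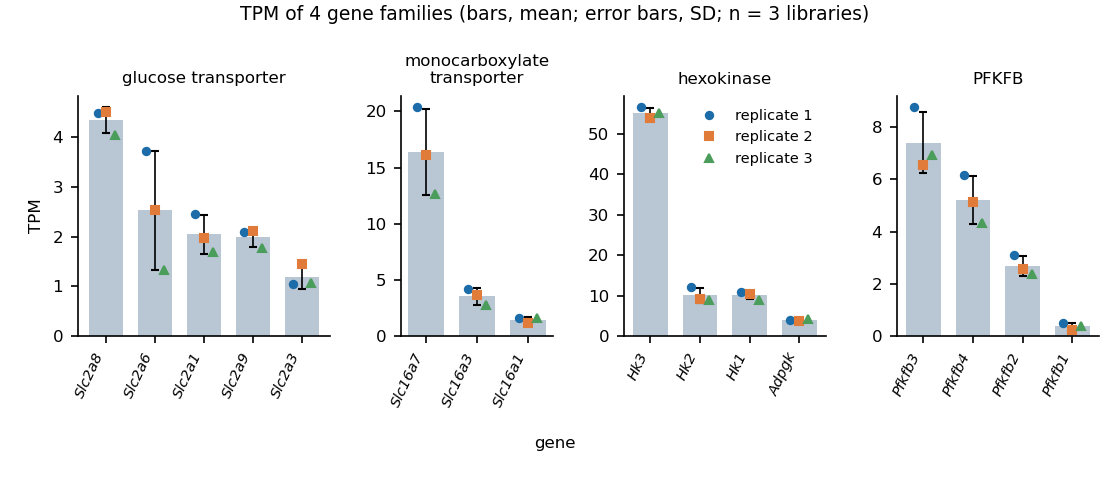
TPM (vertical axes, linear from 0) of members and of other listed genes in 4 families; of the other glucose carriers those at 1 TPM in all libraries are drawn, and genes at 0 TPM are left out. Bars are means, error bars SD over 3 libraries, and symbols replicates 1, 2 and 3. Slc2a8 stands above Slc2a6 and Slc2a1, and Slc16a7 above Slc16a3 and Slc16a1, in all libraries.

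Of the 5 pentose phosphate enzymes, Rpia was below the others in every library. G6pdx, which catalyses the first and rate-limiting step, had 38.2, 32.0 and 28.2 TPM, and Pgd, the other NADPH-forming dehydrogenase, had 61.7, 51.3 and 47.8 TPM. Transaldolase Taldo1 and transketolase Tkt, which exchange carbon with glycolysis, had 75.3 ± 9.38 and 42.3 ± 6.55 TPM. Rpia, the ribose phosphate isomerase, was the lowest of the 5, with 2.38, 2.68 and 2.18 TPM. Of 9 further genes of this pathway and its outlets, 6 reached 1 TPM in all libraries. Pgls, the lactonase between G6pdx and Pgd, had 25.0 ± 3.99 TPM, and Nadk, the NAD kinase, 24.5 ± 4.77 TPM. Prps2, which activates ribose phosphate for nucleotide synthesis, had 14.2 ± 0.692 TPM. H6pd, the reticulum enzyme parallel to G6pdx, was at 5.40 ± 0.383 TPM, and G6pdx held 85.7 ± 1.70% of the pair. The transketolase-like genes Tktl1 and Tktl2 were near 0, at 0.00333 ± 0.00577 TPM for Tktl1 and 0 counts for Tktl2.

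Pfkfb3 and Pfkfb4 make and remove the sugar bisphosphate that activates phosphofructokinase. Pfkfb3, whose kinase activity dominates, had 8.75, 6.56 and 6.91 TPM, and Pfkfb4 had 6.17, 5.12 and 4.33 TPM. Pfkfb3 was higher in every library, 1.43-fold (log2 0.51 ± 0.16; p = 0.25, two-sided exact sign-flip test), and their ranges did not overlap. Pfkfb2, the heart form, had 2.69 ± 0.372 TPM and Pfkfb1, the liver form, 0.370 ± 0.121 TPM. Tigar, a phosphatase that opposes Pfkfb3 and favours the pentose phosphate branch, had 2.17, 1.79 and 1.47 TPM. Of the 9 genes listed as other Pfkfb and gluconeogenic genes, 3 reached 1 TPM in all libraries. They were Pfkfb2, G6pc3, the widespread glucose-6-phosphatase, with 5.95 ± 0.442 TPM, and Pck2, the mitochondrial phosphoenolpyruvate carboxykinase, with 2.78 ± 0.134 TPM. The liver bisphosphatase Fbp1 was at 0.05, 0 and 0.02 TPM, and the cytosolic carboxykinase Pck1 had 0 counts.

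Hif1a, the oxygen-regulated transcription factor that drives many glycolytic genes, had 14.6, 11.6 and 11.6 TPM, against 1.23 ± 0.265 TPM for its relative Epas1. Its partner Arnt had 9.19 ± 0.908 TPM and the hydroxylases Egln1 and Egln2 that mark it for removal had 5.52 ± 0.634 and 10.3 ± 0.551 TPM, whereas the hypoxia-inducible hydroxylase Egln3 was at 0.07, 0.07 and 0.05 TPM. Of 14 listed HIF targets outside glycolysis 9 reached 1 TPM in all libraries, led by Bnip3l (27.3 ± 1.32 TPM), Vegfa (24.8 ± 4.09 TPM) and P4ha1 (11.2 ± 2.47 TPM). Pdk1, which blocks entry of pyruvate into the mitochondrial cycle, averaged 4.40 ± 0.427 TPM, and exceeded Pdk2 (2.44 ± 0.387 TPM), Pdk3 (2.52 ± 0.254 TPM) and Pdk4 (0.00333 ± 0.00577 TPM) in every library. The mitochondrial pyruvate carrier subunit Mpc1 was at 66.9 ± 7.22 TPM and Mpc2 at 15.8 ± 1.85 TPM, and Dld, a subunit of the pyruvate dehydrogenase complex, at 14.4 ± 1.46 TPM. Of 12 listed genes of pyruvate entry into mitochondria 11 reached 1 TPM in all libraries, and of 12 glycogen genes 10 did. Glycogenin (Gyg), the primer of glycogen, was at 118, 115 and 83.6 TPM, against 1.83 ± 0.0889 TPM for glycogen synthase Gys1. Ugp2, which makes the sugar donor of glycogen, had 18.6 ± 2.55 TPM, and the phosphorylase Pygl had 13.9, 11.8 and 10.4 TPM. Txnip, an arrestin that lowers glucose uptake, was at 70.4, 81.0 and 67.8 TPM, and Mlx and Mlxip, glucose-sensing transcription factors, had 7.76 ± 0.855 and 6.11 ± 0.822 TPM.

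The letters ACGTG and GCGTG are the core of the sequence HIF binds. In the RefSeq windows from 250 bases before to 50 after each start, searched on both strands, 17 of the 31 members (54.8%) had ACGTG in a promoter. The share was 31.2% of the 7159 nuclear protein-coding genes that had such a window and at least 1 TPM in all libraries. Over all 27025 genes with such a window it was 21.8%. GCGTG was held by 21 members (67.7%), against 57.8% and 35.2%. For 4 of the 17 members, transcripts starting within 100 bases of the start of the ACGTG window held almost none of the gene's TPM. Their share was 0% for Hk1, 0.0704 ± 0.0616% for Pkm, 0.593 ± 1.03% for Aldoc and 1.70 ± 0.522% for G6pdx. The values for Hk1 and Aldoc depend on that limit of 100 bases. Hk1-202, with 55.0% of Hk1 TPM, and Aldoc-201, with 55.3% of Aldoc TPM, start farther off but inside those windows. Members have 45 such windows and genes differ in their number of windows, which raises the share per gene. The median content of G and C was 61% in the members' windows and in those of the detected genes, and 52.7% over all windows. The Ldha window (chr7:46845554-46845853, plus strand, RefSeq, GRCm38.p6) held the most ACGTG matches, 5, where the letters CACGTG match on both strands. Transcripts starting within 100 bases of its start held 99.7 ± 0.185% of Ldha TPM. It is printed as the member promoter richest in the motif, with capitals as above, and is a description of letters, not of bound sites.
Ldha: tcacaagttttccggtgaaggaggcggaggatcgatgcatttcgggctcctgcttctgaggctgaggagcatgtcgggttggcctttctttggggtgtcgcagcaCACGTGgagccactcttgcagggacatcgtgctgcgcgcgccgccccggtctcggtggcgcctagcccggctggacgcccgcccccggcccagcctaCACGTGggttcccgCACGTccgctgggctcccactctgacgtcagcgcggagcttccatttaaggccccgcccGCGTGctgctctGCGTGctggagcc

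Annotated transcripts differed in how surely they could be assigned. Tkt (chromosome 14, 30548359 to 30574720, plus strand) had most of its TPM, 76.2%, 75.6% and 72.6% in replicates 1, 2 and 3, in Tkt-209, which the annotation gives as a processed transcript with no reading frame. The full coding transcript Tkt-201 held 23.0%, 23.2% and 24.5%. The second table also placed Tkt-209 first, with 82.3 ± 1.37%. Tkt-209 shares 1877 of its 1962 bases with the exons of Tkt-201 and covers 94.3% of its coding bases, and its own first part is 85 bases long, so reads shared by both are divided by the estimate. For Gpi1 the coding Gpi1-201 held 58.7 ± 2.29% and the decay-annotated Gpi1-207 held 26.2 ± 4.36%, and the second table gave 57.0 ± 4.17% and 20.4 ± 5.08%. Gpi1-207 lies wholly within the exons of Gpi1-201.

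Other assignments depended on the table. The short processed transcript Hk2-202, which lies wholly within the last part of Hk2-201 outside its coding bases, held 32.6 ± 3.68% of Hk2 TPM from 78.6, 162 and 90.8 expected counts, but 0 in the second table, where Hk2-201 held 96.9 ± 1.32%. Taldo1-205, a processed transcript, held 17.0 ± 3.16% in the first table and 0.764 ± 1.14% in the second. Pdk1-201 held 97.0 ± 2.26% in the first table, against 47.2 ± 6.51% in the second, where the processed transcript Pdk1-208 held 30.5 ± 0.886%. Hk1 had 2 coding transcripts of like level that start at different first exons, Hk1-202 with 55.0 ± 4.75% and Hk1-201 with 41.1 ± 4.90%, and the second table put them at 39.2 ± 3.14% and 44.4 ± 2.00%. Transcripts annotated as retained introns held 0.390%, 0.437% and 0.852% of the members' TPM in replicates 1, 2 and 3, against 2.92%, 3.00% and 3.41% over all nuclear protein-coding genes, and replicate 3, the library highest in Malat1, was the highest in both.

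**Figure D4:**
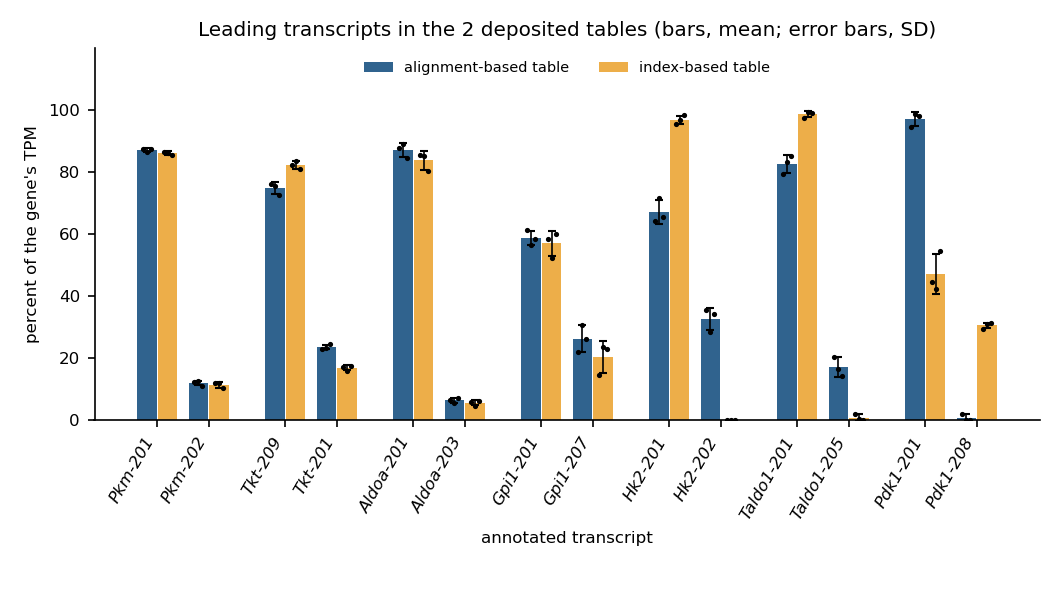
Percent of the gene's TPM (vertical axis) in pairs of transcripts of 7 members, from the alignment-based and the index-based table. Bars are means, error bars SD, and dots the 3 libraries. Pkm-201, Tkt-209 and Aldoa-201 lead in both tables, whereas Hk2-202 and Taldo1-205 lose nearly all of their share in the index-based table and Pdk1-208 gains it.

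Glycolytic genes have many retrotransposed copies, and reads of near-identical copies are divided by the estimate. A search of annotated pseudogenes against the members' coding transcripts (identity of at least 80% over at least 50% of the pseudogene) found 421 copies of 12 members, of which 332 were of Gapdh. Of these copies 3 reached 1 TPM in all libraries, Gm7336 and Gm10359 of Gapdh and Gm5537 of Pgk1. Copies of Pgk1 held 7.72 ± 1.17% of the TPM of Pgk1 and copies together, nearly all in Gm5537 on chromosome 3, which is identical to Pgk1 over its 1252 bases and had 7.52, 5.45 and 4.56 TPM. Copies of Gapdh held 4.90 ± 0.427%, with Gm7336 on chromosome 7 (99.8% identity over 1232 bases) the highest, at 6.82, 8.66 and 6.24 TPM. In the second table the copies held 8.66 ± 5.27% for Pgk1 and 2.13 ± 0.510% for Gapdh. For Pgam1 the copies held 1.54 ± 0.569% in the first table and 0.0159 ± 0.0187% in the second. The copy of Ldhb held 5.72 ± 2.35% in the first table and 7.02 ± 2.47% in the second, from at most 9.15 expected counts in a library. Copies of Gpi1 held 0.326 ± 0.0795% in the first table and 2.94 ± 3.84% in the second. Copies of Ldha held 1.35 ± 0.186% and 1.59 ± 0.244%. The levels of Pgk1, Ldhb, Gapdh, Pgam1, Gpi1 and Ldha are uncertain on this account, and the copies' shares are estimates, not bounds on the error.

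On TPM, the members moved with the library. Replicate 1 was the highest library for 25 members and replicate 3 the lowest for 26. Replicate 1 was the highest and replicate 3 the lowest for 21 of 31 members, against 66.2% of the 9165 nuclear protein-coding genes averaging 1 TPM or more, so the members' share was close to that of all such genes. After rescaling it was 6 of 31, against 16.6% of the same genes. The SD of log2(TPM + 0.1) between libraries had a median of 0.21 over the members and of 0.18 over those genes, or 0.11 and 0.10 after rescaling. Without replicate 3 the median on TPM was 0.12 over the members and 0.13 over all those genes, so the members' median was then the lower. With rescaled values, 17 members lay above and 14 below the median of all these genes.

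After rescaling, the highest and lowest library were less than 1.5-fold apart for 28 of 31 members, against 93.7% of the same 9165 genes, a share close to the members'. The exceptions were Slc2a6, with 14.9, 11.5 and 6.77 rescaled TPM in replicates 1, 2 and 3, Aldoc with 13.5, 18.7 and 8.65, and Slc16a1 with 6.33, 5.41 and 8.25. Their SDs of log2 were 0.58, 0.55 and 0.30. The direction was not shared: replicate 3 was lowest for Slc2a6 and Aldoc and highest for Slc16a1. The index-based table, rescaled, gave 16.6, 12.2 and 7.58 for Slc2a6, 14.4, 20.0 and 9.72 for Aldoc, and 6.23, 5.27 and 8.07 for Slc16a1, the same order of libraries for each. Next came Gapdh (1206, 1456 and 1146 rescaled TPM) and Rpia (9.53, 12.2 and 11.1), both with an SD of log2 of 0.18. The steadiest members were Pdk1, Pgd, Taldo1, G6pdx and Ldha, with SDs of 0.03 to 0.05. With TMM-normalised counts Pgk1 (0.03) was among the 5 steadiest and G6pdx (0.07) was not. On the same counts Ldhb (0.27) and Slc16a3 (0.24) varied more than Gapdh (0.20) and Rpia (0.19). Hk3 and Gapdh moved differently after rescaling: Hk3 was 226, 245 and 280.3 rescaled TPM, highest in replicate 3, where Gapdh was lowest. The share of nuclear protein-coding TPM, Malat1 and the neutrophil markers differed between the same libraries, as given above, and their part in these differences was not tested.

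**Figure D5:**
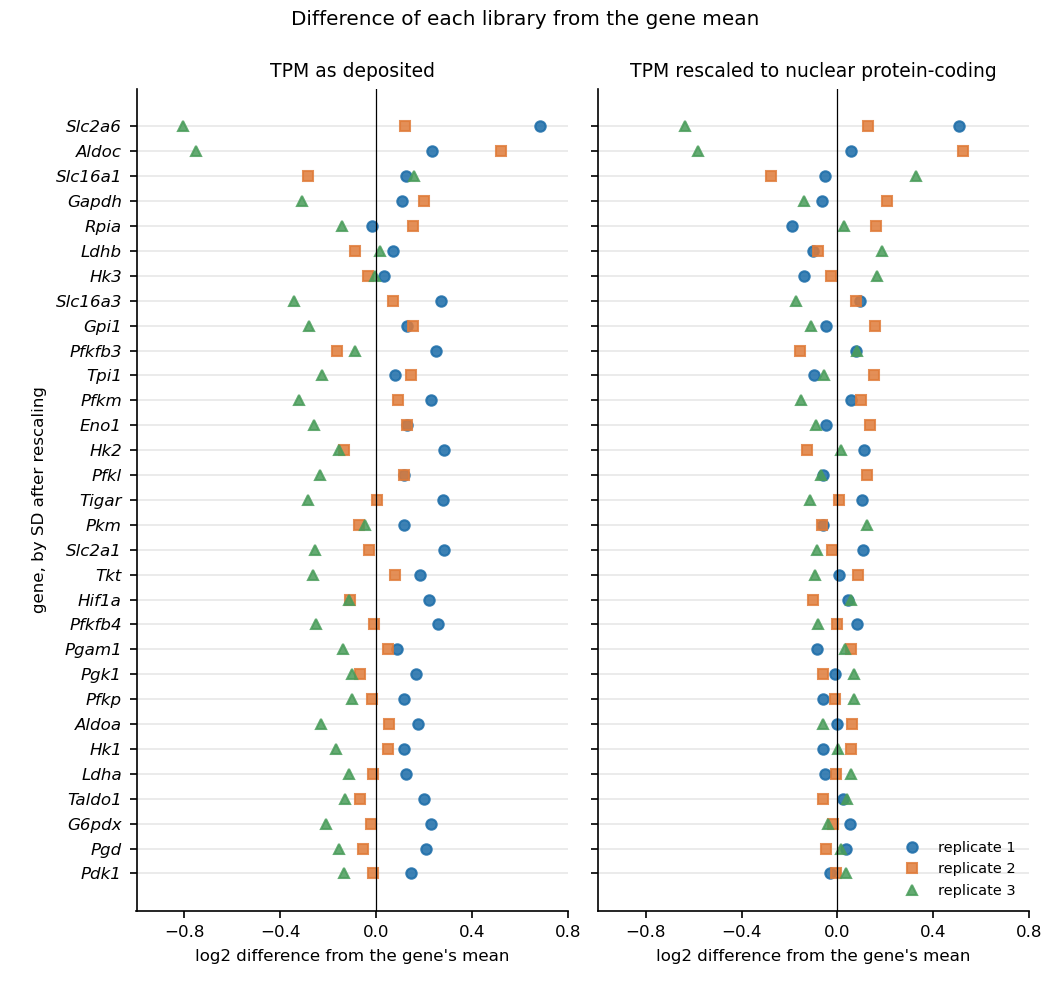
Log2 difference of each library from the gene's own mean (horizontal axes) for the 31 members, ordered by SD after rescaling, on TPM as deposited (left) and rescaled to nuclear protein-coding genes (right). On the left replicate 1 lies mostly right and replicate 3 left of 0; on the right most members sit close to 0, except Slc2a6, Aldoc and Slc16a1.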

How the data were processed

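Cytosolic total RNA of 1 group of 3 libraries was analysed. Per the notes deposited beside the tables, the gene table and a first transcript table rest on transcriptome alignments, and a second, index-based transcript table was made from the reads themselves, on mm10 with GENCODE M21. The tools used and the strandedness were not given in the sources used here; without strand, reads of a gene and its antisense partner cannot be separated. The deposited expected counts are estimated reads per gene, and the second table's estimated counts were deposited likewise. The deposited TPM values sum to 1000000 over all rows of a library, so abundant short RNAs lower every mRNA, and the deposited FPKM values are per kilobase and depth. Estimates divide reads between near-identical copies. Rows naming no gene held 0.402%, 0.108% and 0.122% of counts in replicates 1, 2 and 3 and stayed out of gene totals.

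Members, lists and tests were chosen with earlier results of these data known. All members were named, with the highest genes of the other metabolic lists and the isoenzymes of each step; marker lists are given mostly by counts and sums, and of the leading transcripts only some are named. Other genes, and the transcripts and retrocopies described, were partly chosen after their values were seen. Some listed genes are not reported here. A gene was called detected at 1 TPM in all libraries. The sign-flip test was exact and two-sided on log2 TPM differences within a library. Spread was the SD of log2(TPM + 0.1). Rounded expected counts were normalised with edgeR 4.0.16 and DESeq2 1.42.0 as alternatives (R 4.3.3). Pseudogenes were aligned with blastn 2.17.0. Python 3.11.15, pandas 2.3.3 and numpy 2.4.6 were used. The spread calculation was tested on simulated data. Between 42.9% and 54.2% of 9273 genes with at least 100 counts differed between pairs of libraries beyond the 95% counting range, so no pair was treated as the same library deposited again.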

Additional observations from a re-analysis of the deposited data

How the results depend on the processing

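No paired analysis was possible because there is 1 group. With 3 libraries no exact sign-flip p falls under 0.25, so the tests say nothing of stability. All 31 members stayed at 1 TPM without any of the 3 libraries and with rescaled TPM, 0.5 TPM, FPKM, posterior mean TPM or summed identifiers. A limit of 5 TPM left 19. There were 23 in the second transcript table (all nuclear protein-coding genes, 31.4%) and 31 in it after rescaling (added after seeing the data). Shares over all nuclear protein-coding genes were computed at 1 TPM only, on TPM, rescaled TPM and the second table. The remaining counts show only how the members change with the setting.

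The members' median SD of log2 TPM, 0.21, was 0.11 with rescaled TPM, 0.11 with TMM, 0.11 with DESeq2 size factors, 0.33 in the second table and 0.11 in that table rescaled (added after seeing the data); it ranged from 0.12 (without replicate 3) to 0.24 without single libraries. All other settings kept it within 1.5 times.

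Isoenzyme shares without single libraries ranged from 72.2% to 74.4% (Hk3), 57.7% to 60.1% (Pfkp), 97.8% to 98.4% (Aldoa), 98.5% to 98.6% (Ldha), 50.1% to 58.2% (Slc2a6), 67.8% to 74.1% (Slc16a3) and 57.4% to 60.1% (Pfkfb3). With expected counts, which are not per length, they were 67.2% (Hk3), 97.0% (Aldoa), 99.1% (Ldha), 52.8% (Slc16a3) and 67.6% (Pfkfb3), and Slc2a6 fell below Slc2a1 with 44.3%. The second table gave 75.6% for Hk3 and 98.7% for Ldha, and posterior mean TPM 98.4% for Ldha. Adding the other listed genes of each family, chosen after seeing the data, gave 69.7% for Hk3, 47.3% for Pfkfb3, 20.2% for Slc2a6 (behind Slc2a8) and 16.6% for Slc16a3 (behind Slc16a7).

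Role groups moved with the unit. With expected counts they held 0.00251% (glucose uptake), 0.372% (glycolysis), 0.0362% (lactate), 0.0821% (pentose phosphate) and 0.0302% (regulators) of nuclear protein-coding counts. As percent of the TPM of all rows they held 0.000457%, 0.0977%, 0.0108%, 0.0206% and 0.00314% in that order. In the second table lactate held 0.0461%, pentose phosphate 0.0889% and regulators 0.0151%. Without single libraries the ranges were 0.00179% to 0.00226%, 0.426% to 0.449%, 0.0478% to 0.0496%, 0.0921% to 0.0934% and 0.0139% to 0.0145%.

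The Pkm-201 share was 86.0% in the second table, 89.4% with expected counts and 86.9% to 87.4% without single libraries. Of 23 leading transcripts, 4 lost first place in the second table: Hk1-202 (39.2%), Hk3-208 (21.9%), Aldoc-201 (33.3%) and Pfkfb3-220 (14.6%). Without single libraries Hk3-208 held 39.5% to 43.3%, and it came second to Hk3-201 without replicate 3. Pfkp-201 lost first place with expected counts (43.7%). The cause of these shifts was not tested. The libraries' depth limits the low members most: Ldhb rested on 55.6, 204 and 104 expected counts.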
